A study of Mus musculus with 8 samples.

Results

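The TNF ligand and TNF receptor superfamilies were examined as 40 genes among the 33641 gene symbols of the expression tables. A gene was a member when its symbol was Tnfsf or Tnfrsf followed by a number and an optional letter, or was Tnf, Lta, Ltb, Ltbr, Fas, Fasl, Cd40, Cd27 or Cd70. The members were 16 ligands and 24 receptors. The receptors were 5 with a death domain, 4 grouped here as decoy receptors and 15 that signal mainly through TRAF adaptors.

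TNF superfamily ligands are trimers, most of them made as membrane proteins that can be shed, and each binds 1 or a few receptors. Receptors with a death domain can recruit caspase-8 and trigger apoptosis, while receptors without one bind TRAF proteins and activate NF-kB and MAP kinases. Decoy receptors bind ligand without a full signaling tail. In endothelium the family is known for TNF-induced adhesion molecules, for lymphotoxin signaling and for the death ligand TRAIL.

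The RNA-seq data came from tumor endothelial cells (TECs), gated as CD45-CD31+ by flow cytometry, from lung tumors dissected on day 21 after injection of LLC cells, a mouse lung carcinoma line. There were 4 libraries labelled control and 4 labelled endFoxf1+/-. The control libraries are named C1 to C4, and the endFoxf1+/- libraries H1 to H4. In endFoxf1+/- mice (Pdgfb-iCreER; Foxf1 fl/+, C57Bl/6), tamoxifen (3 mg by gavage at 6 to 8 weeks of age) activates a Cre driven by the endothelial Pdgfb promoter, which deletes exon 1 of Foxf1 from 1 allele. FOXF1 is a forkhead transcription factor of lung endothelium. The control libraries carry only the word control in their labels. The methods of the study describe single transgenic Foxf1 fl/+ or Pdgfb-Cre littermates and, for the tumor model, C57Bl/6 wild-type mice, so the control genotype behind each library is not known. The study also describes control mice as treated with tamoxifen, so tamoxifen is not described as a difference between the groups. Both groups carried the same mCherry-labelled tumor cells in the left lung. The labels do not say how many mice gave each library, so the p-values here measure the spread between libraries.

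The values are TPM, relative transcript abundances scaled to the same total in every library, which are corrected for transcript length, so levels can be compared between genes. TPM keep no read number and the depth of each library is unknown. Foxf1 was 213, 285, 296 and 331 TPM in C1 to C4 and 177, 203, 14.04 and 105 TPM in H1 to H4. It was lower in each of the 4 endFoxf1+/- libraries than in any control library (two-sided p = 0.0286 by exact permutation of libraries, the smallest that 70 assignments of 4 against 4 allow; 0.0571 without H3). Libraries H3 and H4 stood apart. The geometric mean TPM of 20 endothelial markers was 5.24% of the control mean in H3 and 55.2% in H4, against 84.0 to 109% in C1 to C4, H1 and H2. Each of the 20 markers was lowest in H3. The median correlation with the other libraries across genes was 0.795 for H3, 0.892 for H4 and 0.958 to 0.968 for the rest. The label of sorted endothelial cells therefore went against the markers in H3. Many results are also given without H3, or without H3 and H4. In bulk RNA, fewer cells of a type and less RNA per cell cannot be told apart.

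Upstream sequences are shown for a few members. They are Tnfrsf9 and Tnfsf13b, the members whose TPM did not overlap between the groups, and Tnfsf10 and Fas, the most abundant ligand and receptor. All sequences are RefSeq reference sequence of GRCm38.p6, written 5′ to 3′ on the strand of the gene. The upstream window of Tnfrsf9 (chr4:150919905-150920154, plus strand) lies in an intron of a longer Tnfrsf9 transcript and of Camta1, which runs on the opposite strand. The window of Tnfsf13b (chr8:10006217-10006466, plus strand) and that of Fas (chr19:34290409-34290658, plus strand) are the 250 bases before the start, outside annotated genes. The window of Tnfsf10 (chr3:27316827-27317027, plus strand) spans bases 250 to 50 before the start. Capitals mark a match to an AP-1 or NF-kB motif.
Tnfrsf9 upstream: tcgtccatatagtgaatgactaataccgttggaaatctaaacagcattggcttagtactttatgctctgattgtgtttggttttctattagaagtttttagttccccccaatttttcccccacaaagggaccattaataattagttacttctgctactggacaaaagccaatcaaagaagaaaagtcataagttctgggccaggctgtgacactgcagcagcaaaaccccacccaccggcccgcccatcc
Tnfsf13b upstream: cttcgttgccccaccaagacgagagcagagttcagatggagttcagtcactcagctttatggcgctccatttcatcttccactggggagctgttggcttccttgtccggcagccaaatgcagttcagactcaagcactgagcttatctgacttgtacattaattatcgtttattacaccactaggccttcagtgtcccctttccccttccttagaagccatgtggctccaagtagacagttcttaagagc
Tnfsf10 upstream: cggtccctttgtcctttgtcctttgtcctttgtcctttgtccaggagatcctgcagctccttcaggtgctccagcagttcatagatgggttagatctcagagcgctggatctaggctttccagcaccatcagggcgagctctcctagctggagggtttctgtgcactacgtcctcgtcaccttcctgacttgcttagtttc
Fas upstream: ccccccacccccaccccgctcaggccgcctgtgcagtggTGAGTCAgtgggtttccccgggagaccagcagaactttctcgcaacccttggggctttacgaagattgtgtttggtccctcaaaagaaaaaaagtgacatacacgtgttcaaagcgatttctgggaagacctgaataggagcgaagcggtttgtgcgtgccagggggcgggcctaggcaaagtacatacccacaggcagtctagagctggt
Tnfrsf9 site: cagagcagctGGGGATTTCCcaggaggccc

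The last line is 30 bases (chr4:150927946-150927975, plus strand) upstream of a second, downstream RefSeq start of Tnfrsf9, within an untranslated exon of another Tnfrsf9 transcript. Its NF-kB match begins 43 bases before that start, and an AP-1 match that does not overlap it begins 15 bases before the start. Of the 40 members, 31 had a RefSeq promoter entry, with 35 windows of 250 upstream bases in all. An NF-kB motif, GGG followed by 2 bases of any kind and TTTCC, searched on both strands, was in 3 of the 35 windows (Ltb, Tnfrsf25 and Tnfrsf9) and in 1.41% of all 32851 windows. The AP-1 letters TGANTCA were in 6 windows (Fas, Tnfrsf8, Tnfrsf9, Tnfsf13, Tnfsf13b and Tnfsf14) and in 6.75% of all windows. The Tnfsf13b match belongs to a start downstream of the one printed. The forkhead core TGTTTAC was in the window of Ltb and in 3.17% of all windows. A match is only a description of letters.

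Of the 40 members, 27 reached 1 TPM in 4 or more of the 8 libraries and were tested. Of these, 24 reached 1 TPM in all 4 control libraries, while Tnf, Tnfsf9 and Tnfsf13b met the filter only with the endFoxf1+/- libraries counted. They were 6 of the 16 ligands, all 5 death receptors, all 4 decoy receptors and 12 of the 15 TRAF receptors. The summed TPM of all 40 members was 730 to 895 in the control libraries, and Tnfsf10, Fas and Tnfrsf1a together made up 59.7 to 62.1% of it. Ligands held 26.3 to 32.0%, nearly all of it Tnfsf10 and Tnfsf12. The top of the order was Tnfsf10 at 194 ± 19.8 TPM, Fas at 168 ± 45.3 TPM and Tnfrsf1a at 140 ± 12.5 TPM (mean ± SD, n = 4 control libraries). The ranges of Tnfsf10 and Fas overlapped, and so did those of Fas and Tnfrsf1a. Ltbr followed at 59.5 ± 5.87 TPM, below every value of the first 3 members, and then Tnfrsf12a at 40.0 ± 8.76 TPM, Tnfsf12 at 35.4 ± 3.90 TPM and Cd40 at 32.0 ± 3.07 TPM, whose ranges overlapped.

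**Figure D1:**
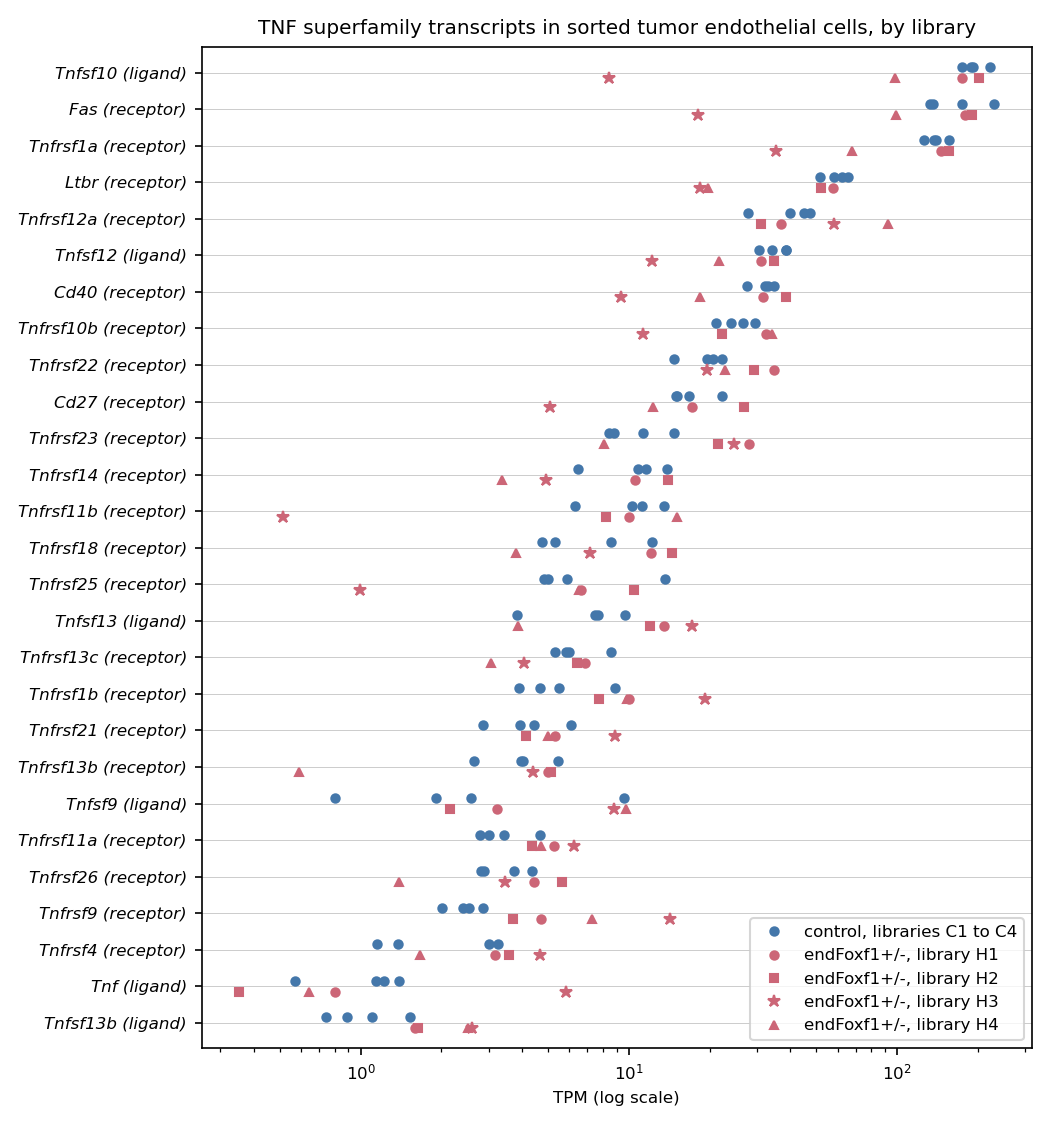
TPM (horizontal log axis) of the 27 tested members, 1 row per gene ordered by the control mean. Blue points are the 4 control libraries and red symbols are the 4 endFoxf1+/- libraries, with library H3 as a star and library H4 as a triangle. Tnfsf10, Fas and Tnfrsf1a lie at the top, and the H3 stars of these genes lie far to the left, at 8.44, 18.1 and 35.3 TPM.

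Several abundant receptors had a ligand that was barely present in the same libraries. Bulk RNA does not tell whether receptor and ligand transcripts came from the same cells. The libraries also held epithelial and leukocyte transcripts, and the cell type behind each value was not tested. Fas was high while Fasl, its ligand, was 0 to 0.366 TPM in the control libraries. Tnfrsf1a was high while Tnf was 0.570 to 1.39 TPM. Ltbr, the lymphotoxin beta receptor, stood beside Lta at 0 to 0.222 TPM, Ltb at 0 to 0.554 TPM and Tnfsf14, the ligand LIGHT, at 0.441 to 2.09 TPM. Cd27 was 15.1 to 22.3 TPM while its ligand Cd70 was listed at 0 in all 4 control libraries. By contrast, the TRAIL pair (Tnfsf10 and its receptor Tnfrsf10b) and the TWEAK pair (Tnfsf12 and its receptor Tnfrsf12a) were both present on each side.

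In endFoxf1+/- TECs no member passed the test across all genes, and the family did not move one way. Of the 27 tested members, 14 had a higher and 13 a lower mean than in control TECs. The median log2 fold change was 0.01, beside -0.17 over all 14964 genes tested, of which 68% were lower. Fold changes here are differences in mean log2(TPM + 1), which understate the change of genes with low TPM. With limma and Benjamini-Hochberg adjustment, 0 members had an adjusted p under 0.05, and so did 0 of all 14964 genes. At an unadjusted p under 0.05 from limma, 2 members were higher (Tnfrsf9 and Tnfrsf1b) and 0 were lower, where 5.59% of all genes passed this limit, 2.82% higher and 2.77% lower. The TPM of 2 members (Tnfrsf9 and Tnfsf13b) were higher without overlap between the groups, and 0 were lower without overlap, where 5.04% of all genes did not overlap, 2.73% higher and 2.31% lower. Each of these counts, 2 of 27 members or 7.41%, is near the shares over all genes. Tnfsf13b reached 1 TPM in 2 control libraries and in all 4 endFoxf1+/- libraries, so it was tested through the group where it was high and its place in the count is no support. Of the 24 members at 1 TPM or more in all control libraries, 1 (Tnfrsf9) did not overlap, or 4.17%.

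The 4 most abundant members (Tnfsf10, Fas, Tnfrsf1a and Ltbr) had means below control, which rested largely on H3 and H4, while Tnfrsf12a, the fifth in control mean, had a mean above control. Without H3, 17 of 27 members were higher and 10 lower, with a median log2 fold change of 0.16 beside 0.01 over all genes, of which 48.3% were lower. At an unadjusted p under 0.05 from limma, 3 members were then higher (Tnfrsf9, Tnfrsf22 and Tnfrsf1b), where 7.18% of all genes passed and 4.83% were higher. Without H3, 3 members (Tnfrsf9, Tnfrsf22 and Tnfsf13b) were higher without overlap, where 9.1% of all genes did not overlap and 6.5% were higher. Without both H3 and H4, 6 members did not overlap and were higher (Tnfsf13b, Tnfsf13, Tnfrsf9, Tnfrsf22, Tnfrsf23 and Tnfrsf26), where 24.4% of all genes did not overlap and 20.2% were higher. The calls at an unadjusted p under 0.05 from limma changed with the libraries. Without H4, 4 members were higher (Tnfrsf9, Tnfrsf1b, Tnfrsf23 and Tnfsf13), beside 3.59% of all genes. Without H2, 2 were higher (Tnfrsf9 and Tnfrsf1b) and 2 lower (Ltbr and Tnfsf12), beside 3.62% and 7.18% of all genes. Without H3 and H4, 5 were higher (Tnfrsf9, Tnfrsf18, Tnfrsf22, Tnfrsf23 and Tnfsf13), beside 9.87% of all genes. Tnfrsf1b was not among these 5, nor was it called without C2, C3 or C4. Without C3, 2 members were higher (Tnfrsf9 and Tnfsf9), where 3.26% of all genes passed in either direction. With limma array weights, which weigh each library by its fit to its group, 8 members were higher, beside 15.2% of all genes. Under quantile normalization, 5 members were higher and 2 lower at an unadjusted p under 0.05 from limma, beside 3.5% and 3.52% of all genes. Median ratio scaling also gave 5 higher and 2 lower members, beside 3.08% and 3.66% of all genes.

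**Figure D2:**
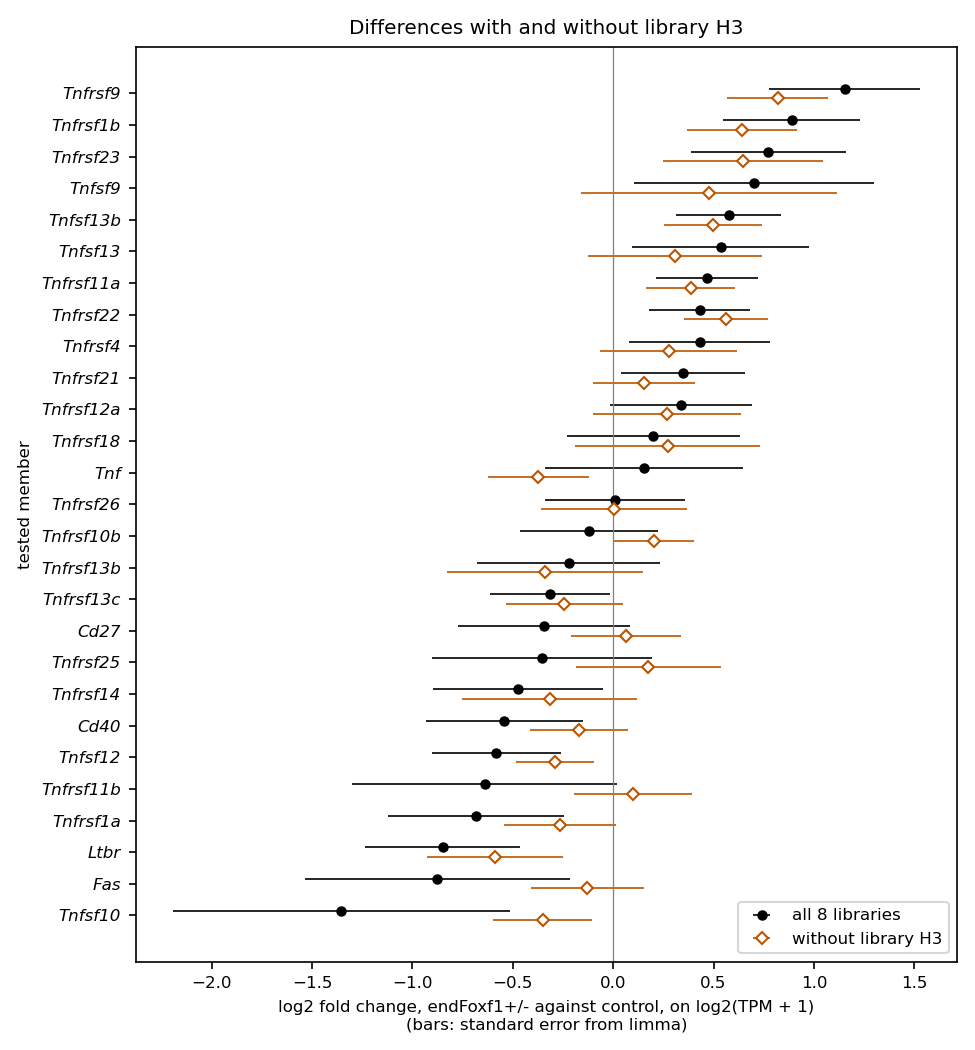
Log2 fold change (endFoxf1+/- against control, on log2(TPM + 1)) of each tested member, with the standard error from limma as a bar. Filled points use all 8 libraries and open diamonds leave out library H3. Tnfsf10 moves from -1.35 to -0.35 and Fas from -0.88 to -0.13, while Tnfrsf9 stays on the right at 1.15 and 0.82.

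Among the ligands, Tnfsf10 encodes TRAIL, which triggers apoptosis through death receptors. It was 188, 222, 175 and 192 TPM in C1 to C4, and 175, 202, 8.44 and 97.9 TPM in H1 to H4. H1 and H2 lay in the control range, H4 was below it, and H3 held 4.35% of the control mean. The log2 fold change was -1.35 with a standard error of 0.84 and an adjusted p of 0.790 (limma with Benjamini-Hochberg adjustment; exact permutation p = 0.200). Without H3 it was -0.35, and without H3 and H4 it was -0.039. The H3 share of Tnfsf10 was close to the 5.24% that the endothelial markers had in that library.

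Tnfsf12 encodes TWEAK, a ligand that stimulates endothelial growth and inflammatory genes. It was 34.1, 38.5, 30.5 and 38.6 TPM in C1 to C4 and 31.1, 34.7, 12.2 and 21.7 TPM in H1 to H4. H3 and H4 were again below each control library while H1 and H2 were within the control range, and the log2 fold change was -0.58 ± 0.32 (standard error) with all libraries and -0.29 without H3. Its locus on chromosome 11 (69686250 to 69695849, minus strand) adjoins that of Tnfsf13, and both overlap Tnfsfm13, a readthrough gene of the same strand. Tnfsfm13 was 15.9 to 21.7 TPM in the control libraries and 15.1, 19.4, 4.44 and 6.45 TPM in H1 to H4, so the split of reads among these 3 genes is uncertain.

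Tnfsf13b encodes BAFF, a survival factor of B lymphocytes made by myeloid and stromal cells. It was 1.52, 0.891, 1.10 and 0.744 TPM in C1 to C4 and 1.59, 1.64, 2.60 and 2.51 TPM in H1 to H4. All 4 endFoxf1+/- libraries were above all 4 controls, by a small margin in H1 and H2. The log2 fold change was 0.58 ± 0.26 (standard error), with an adjusted p of 0.790 from limma with Benjamini-Hochberg adjustment. Without H3 the groups still did not overlap (log2 fold change 0.50). Under quantile normalization, and relative to Pecam1, they did overlap. Since only C1 and C3 reached 1 TPM, this gene was tested through the endFoxf1+/- libraries, and the order of the groups is given as a description.

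Tnfsf9, the ligand of the T cell receptor CD137, had the widest spread among controls relative to its mean of all tested members, at 1.91, 2.59, 9.63 and 0.802 TPM in C1 to C4 and 3.24, 2.15, 8.77 and 9.74 TPM in H1 to H4. The groups overlapped, with H4 alone just above the highest control, and a log2 fold change of 0.70 ± 0.60 (standard error). This log2 fold change was 1.20 without C3 (limma unadjusted p = 0.0466) and -0.042 without H3 and H4. Tnf itself was 0.570 to 1.39 TPM in the control libraries and 0.806, 0.353, 5.85 and 0.640 TPM in H1 to H4, so that only H3 exceeded the control range. Tnfsf13, which encodes the B cell factor APRIL, was 3.83 to 9.71 TPM in controls and 13.5, 12.0, 17.3 and 3.86 TPM in H1 to H4. H1, H2 and H3 were above the control range of Tnfsf13 and H4 was within it. The other 10 ligands were not tested. Of these, Tnfsf4 and Cd70 were listed at 0 in all control libraries, and the highest value in any library was 2.22 TPM, for Ltb in H3.

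Of the 5 death receptors, 4 were lowest of all libraries in H3. The endothelial markers were also lowest there, and the share over all genes was not computed. Fas was 230, 133, 136 and 174 TPM in C1 to C4 and 179, 190, 18.1 and 99.5 TPM in H1 to H4. H1 and H2 were within the control range, and H3 held 10.7% of the control mean. Its log2 fold change was -0.88 ± 0.66 (standard error) with all libraries, -0.13 without H3, and 0.17 without H3 and H4. Tnfrsf1a, the main receptor of TNF on most cells, was 137, 156, 126 and 139 TPM in C1 to C4 and 146, 156, 35.3 and 67.7 TPM in H1 to H4. Its log2 fold change was -0.69 ± 0.44 (standard error), -0.26 without H3 and 0.12 without H3 and H4, with H1 and H2 again at control levels.

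Tnfrsf10b, the TRAIL receptor DR5, was 29.6, 26.7, 21.2 and 24.1 TPM in C1 to C4 and 32.6, 22.2, 11.3 and 34.3 TPM in H1 to H4. H1 and H4 were above the control range and H3 below it, and the log2 fold change of -0.12 ± 0.34 (standard error) became 0.20 without H3. Tnfrsf25, the receptor DR3, was 4.82 to 13.6 TPM in controls and 0.992 to 10.5 TPM in endFoxf1+/- libraries, lowest in H3. Tnfrsf21, the receptor DR6, was the exception, at 2.86 to 6.10 TPM in controls, 5.29, 4.15 and 4.998 TPM in H1, H2 and H4, and 8.91 TPM in H3.

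The decoy receptors Tnfrsf22 and Tnfrsf23 bind TRAIL without a death domain and lie next to Tnfrsf26 within 78.2 kb of chromosome 7 (143607659 to 143685872, minus strand). Tnfrsf22 was 20.5, 19.6, 14.7 and 22.3 TPM in C1 to C4 and 34.9, 29.3, 19.6 and 22.8 TPM in H1 to H4. H1, H2 and H4 were above all controls and H3 was within their range. This gave a log2 fold change of 0.43 ± 0.25 (standard error), and 0.56 without H3, where limma gave an unadjusted p of 0.0266 and an adjusted p of 0.672 with Benjamini-Hochberg adjustment (exact permutation p = 0.0286, the smallest possible for 4 against 3).

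Tnfrsf23 was 14.7, 11.3, 8.42 and 8.82 TPM in C1 to C4 and 28.1, 21.5, 24.7 and 8.10 TPM in H1 to H4. H1, H2 and H3 were all above the control range and H4 was below it, so this receptor was high in H3 although the endothelial markers there were low. Its log2 fold change was 0.77 ± 0.39 (standard error), with an adjusted p of 0.790 from limma with Benjamini-Hochberg adjustment and an exact permutation p of 0.143. Limma array weights, which gave H3 and H4 the lowest weights (0.0643 and 0.178), were the only alternative under which a member passed the threshold. Tnfrsf23 then had a log2 fold change of 1.20 and an adjusted p of 0.0348, among 148 genes or 0.989% of those tested, and its adjusted p ranged from 0.0348 to 0.975 over the alternatives. Without H4 the log2 fold change was 1.15 and the groups did not overlap.

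Tnfrsf26 was 2.82 to 4.36 TPM in controls and 4.43, 5.62, 3.47 and 1.39 TPM in H1 to H4, with a log2 fold change of 0.0084. H1 and H2 were above every control, H3 was within their range and H4 below it, and without H3 and H4 the log2 fold change was 0.45. Tnfrsf11b, the secreted decoy osteoprotegerin, was 6.30, 11.2, 10.3 and 13.5 TPM in C1 to C4 and 9.99, 8.19, 0.514 and 15.1 TPM in H1 to H4. It held 4.98% of the control mean in H3, and the log2 fold change of -0.64 ± 0.66 (standard error) became 0.099 without that library.

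Of the TRAF receptors, Tnfrsf9 had the largest positive log2 fold change of the family. It encodes CD137, a costimulatory receptor of activated lymphocytes that activated endothelium can also express. It was 2.53, 2.85, 2.41 and 2.01 TPM in C1 to C4 and 4.71, 3.72, 14.3 and 7.29 TPM in H1 to H4. The control libraries lay close together and every endFoxf1+/- library was above them, with H3 and H4 the highest. The log2 fold change was 1.15 ± 0.37 (standard error; limma unadjusted p = 0.0124, adjusted p = 0.790 with Benjamini-Hochberg adjustment; exact permutation p = 0.0286). It was 0.82 without H3 and 0.59 without H3 and H4. Tnfrsf9 (chromosome 4, 150914562 to 150946102, plus strand) lies within Camta1 on the opposite strand, and the library kit does not mark strand, so reads from shared positions cannot be told apart. Camta1 was 35.4 to 46.6 TPM in controls and 30.5, 37.6, 10.6 and 39.7 TPM in H1 to H4. The part of Camta1 reads in the Tnfrsf9 values was not tested.

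Tnfrsf1b encodes the TNF receptor that has no death domain and is found on leukocytes and activated endothelium. It was 8.91, 5.49, 4.68 and 3.91 TPM in C1 to C4 and 10.01, 7.76, 19.2 and 9.88 TPM in H1 to H4. H1, H3 and H4 were above all controls and H2 was below C1 only. On the log2 scale the difference was 0.89 ± 0.34 (standard error; limma unadjusted p = 0.0272, adjusted p = 0.790 with Benjamini-Hochberg adjustment; exact permutation p = 0.0571), and 0.64 without H3. With all libraries Tnfrsf1a was below and Tnfrsf1b above its control mean, neither passing the adjusted threshold, and without H3 and H4 both were above (0.12 and 0.59).

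**Figure D3:**
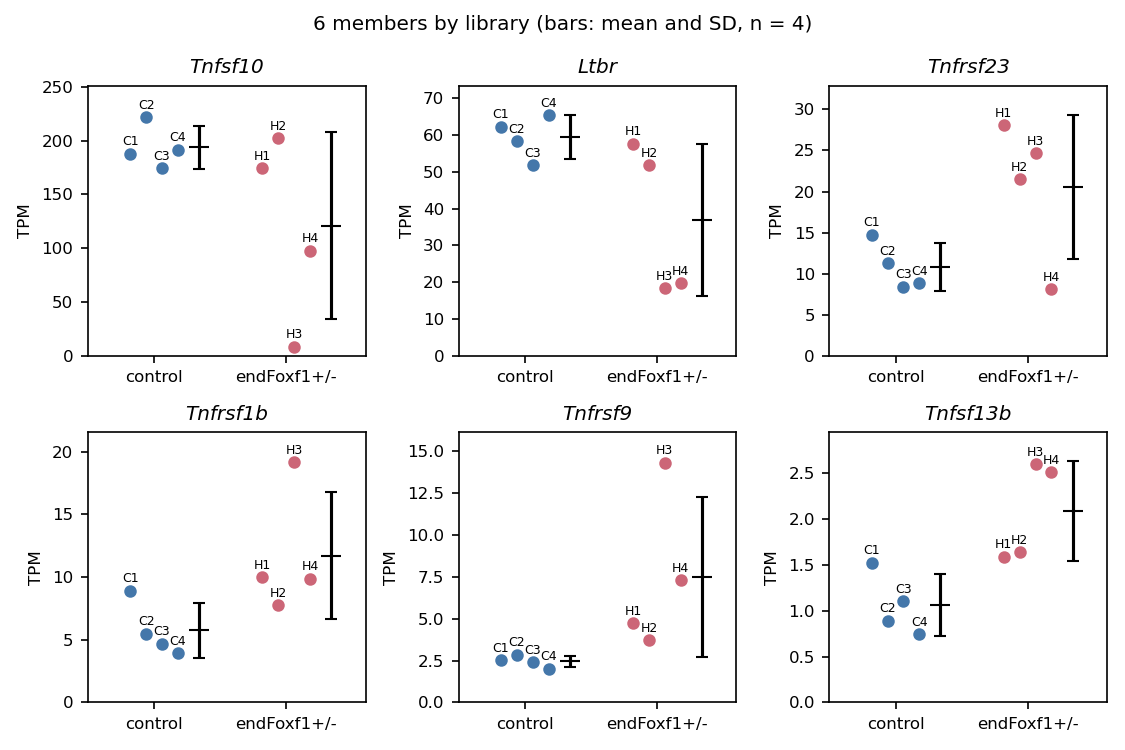
TPM of 6 members by library, with control libraries in blue and endFoxf1+/- libraries in red, and the mean and SD (n = 4) as black bars. Tnfrsf9 and Tnfsf13b have all 4 endFoxf1+/- libraries above the controls, while Tnfsf10 and Ltbr have H1 and H2 at control level and H3 and H4 below, and Tnfrsf23 has H4 alone at the bottom.

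Ltbr, which drives noncanonical NF-kB signaling in lymphoid tissue, was 62.3, 58.3, 51.8 and 65.4 TPM in C1 to C4 and 57.7, 51.9, 18.4 and 19.8 TPM in H1 to H4. H3 and H4 were nearly equal and far below the other 6 libraries, although their endothelial markers differed widely. The log2 fold change was -0.85 ± 0.39 (standard error; limma unadjusted p = 0.0540, adjusted p = 0.790 with Benjamini-Hochberg adjustment; exact permutation p = 0.0857), -0.59 without H3 and -0.11 without H3 and H4. Relative to the mean of the 20 endothelial markers of each library it was 0.39, where the median over all genes was 1.07.

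Tnfrsf12a, the TWEAK receptor Fn14, was 27.8, 47.5, 45.0 and 39.7 TPM in C1 to C4 and 36.8, 31.2, 58.0 and 92.4 TPM in H1 to H4. H3 and H4 were above the controls and H1 and H2 within them, the opposite order to its ligand Tnfsf12. Its log2 fold change was 0.34 ± 0.35 (standard error) and -0.21 without H3 and H4. Cd40, a receptor for helper T cell signals, was 34.9, 32.2, 27.7 and 33.1 TPM in C1 to C4 and 31.5, 38.5, 9.37 and 18.5 TPM in H1 to H4, with a log2 fold change of -0.54 ± 0.39 (standard error), or -0.17 without H3.

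Cd27, best known from lymphocytes, was 15.1, 22.3, 15.1 and 16.7 TPM in C1 to C4 and 17.2, 26.8, 5.06 and 12.3 TPM in H1 to H4. It was lowest in H3, and the log2 fold change was -0.35 ± 0.43 (standard error) with all libraries and 0.064 without H3. The part of lymphocytes in these values was not tested. Cd27 overlaps Vamp1 on the opposite strand.

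Among the other TRAF receptors, Tnfrsf11a, the receptor RANK of osteoclast development, was 4.66, 3.02, 2.79 and 3.42 TPM in C1 to C4 and 5.26, 4.37, 6.24 and 4.71 TPM in H1 to H4. H1, H3 and H4 were above all controls and H2 was below C1 only, with a log2 fold change of 0.47 ± 0.25 (standard error; exact permutation p = 0.0571). Tnfrsf4 (OX40) and Tnfrsf18 (GITR), neighbors on chromosome 4 that costimulate T cells, had log2 fold changes of 0.43 and 0.20. These were 0.64 and 0.53 without H4, and 0.51 and 0.80 without H3 and H4. The B cell receptors Tnfrsf13b (TACI) and Tnfrsf13c (the BAFF receptor) had -0.22 and -0.32, and Tnfrsf14 (HVEM), which binds LIGHT, had -0.47. Without H3 and H4 the signs turned, to 0.31, 0.057 and 0.21. All 5 overlapped between the groups. Tnfrsf8, Tnfrsf17 and Tnfrsf19 were not tested. Tnfrsf8 and Tnfrsf17 stayed under 1 TPM in every library, and Tnfrsf19 was 0.562 to 1.62 TPM in controls and 0.200 to 0.664 TPM in endFoxf1+/- libraries.

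Library H3 held members at both extremes. Of the 27 tested members, 10 were lowest of all 8 libraries in H3 and 8 were highest. The shares of all tested genes that were lowest or highest in H3 were not computed. These counts, and those of the marker lists below, are therefore descriptions and not read as a trait of the family. The lowest were Tnfsf10, Tnfsf12, Fas, Tnfrsf1a, Tnfrsf10b, Tnfrsf25, Tnfrsf11b, Ltbr, Cd40 and Cd27, and the highest were Tnf, Tnfsf13, Tnfsf13b, Tnfrsf1b, Tnfrsf4, Tnfrsf9, Tnfrsf11a and Tnfrsf21. The family summed to 343 TPM in H3 and 576 TPM in H4, against 876 TPM in H1 and 911 TPM in H2. Tnfsf10, Fas and Tnfrsf1a made up 18.04% of the sum in H3 and 46.0% in H4, against 57.1% in H1 and 60.1% in H2.

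**Figure D4:**
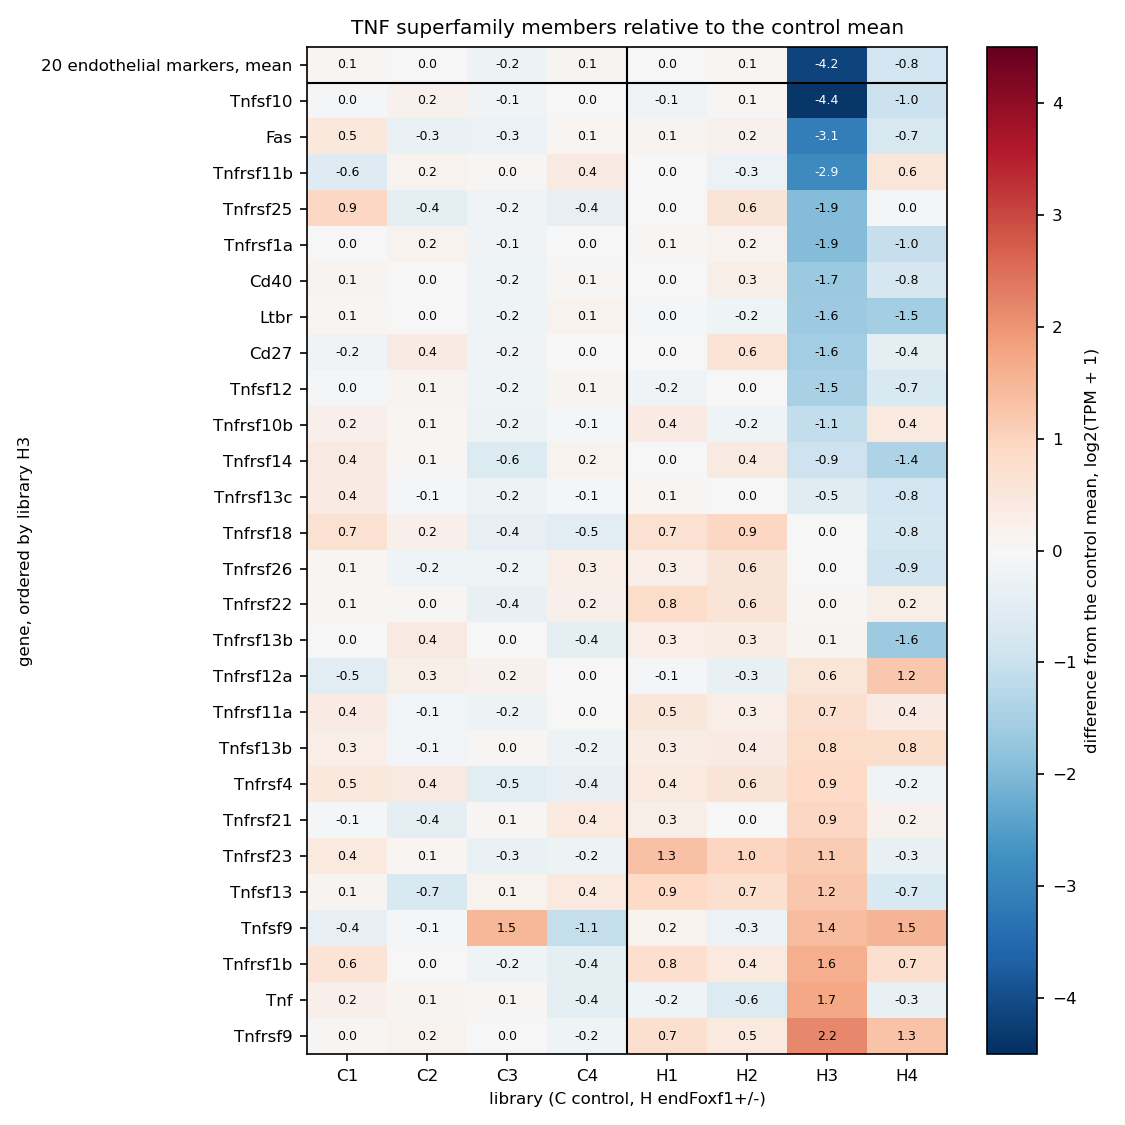
Difference of each library from the control mean in log2(TPM + 1), with 1 row per tested member ordered by H3 and the mean of the 20 endothelial markers in the top row (numbers and color give the same values). H3 runs from -4.4 for Tnfsf10 to 2.2 for Tnfrsf9, and its marker row stands at -4.2, while H1 and H2 stay within about 1.3 of the control mean.

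Leukocyte markers were high in H3, where 8 members were also highest. Of 12 myeloid markers, 12 were highest in H3, and their summed TPM was 1451 to 5104 in controls and 2559, 1802, 8347 and 4684 in H1 to H4. Of 12 T and NK lymphocyte markers, 10 were highest in H3, with sums of 27.1 to 40.2 in controls and 37.4, 43.0, 129 and 15.6 in H1 to H4. Of 8 B lymphocyte and plasma cell markers, 7 were highest in H3, with sums of 9.40 to 526 in controls and 100.98, 336, 3491 and 219 in H1 to H4. Ncr1, an NK cell marker, was listed at 0 in some libraries. The myeloid sum was mostly Lyz2, at 1351 to 4955 TPM in controls. The B lineage sum was mostly Igkc in every library other than C4, where the other B lineage markers made up most of it. These other B lineage markers summed above the control range in H3 only. Without Lyz2 the other 11 myeloid markers summed to 50.7 to 162 TPM in controls and 150.2, 220, 1477 and 207 TPM in H1 to H4, so that H2, H3 and H4 were above the control range.

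Gene by gene, some myeloid and T cell markers were also high in H1 and H2, where others were within or below the control range. Of the 12 myeloid markers, 7 (Ptprc, Cd68, Adgre1, Csf1r, Itgam, C1qa and Itgax) were above every control in both H1 and H2, and 3 were in H4. Csf1r was at most 3.99 TPM in controls and 6.91, 7.80, 51.1 and 2.94 TPM in H1 to H4. Of the 12 T and NK markers, 6 (Cd3e, Cd3g, Cd8b1, Trac, Nkg7 and Gzma) were above every control in both H1 and H2, whereas 0 of the 8 B lineage markers were. By the same rule, 20.2% of all tested genes were above every control in both H1 and H2. Lyz2, S100a8 and S100a9 were within the control range in H1 and H2, and Lck in H1 was 4.75 TPM, below every control. C1qa was 3.19 to 5.35 TPM in controls and 23.2, 22.1, 171 and 8.04 TPM in H1 to H4. Cd68, Cd3g and Trac were also higher in all 4 endFoxf1+/- libraries, where 2.73% of all genes were higher without overlap. Ptprc, which encodes CD45, the antigen excluded by the gate, was 2.94 to 9.13 TPM in controls and 16.5, 9.93, 91.2 and 6.61 TPM in H1 to H4. The 10 fibroblast and pericyte markers summed to 73.9 to 145 TPM in controls and 127 to 1346 TPM in endFoxf1+/- libraries. Of these markers, Col3a1, Dcn and Lum were higher and Rgs5 was lower without overlap, beside 2.73% and 2.31% of all genes. The 8 epithelial markers summed to 6453 to 30643 TPM in controls and 1550 to 23098 TPM in endFoxf1+/- libraries, so Sftpc and other epithelial transcripts were present in both. The part of these cell types in the values of Tnfrsf9, Tnfrsf1b and Tnfsf13b was not tested.

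The proteins downstream of the receptors were followed in a list of 44 adaptors, kinases, ubiquitin ligases, caspases and NF-kB subunits, all of which were tested. With limma and Benjamini-Hochberg adjustment 0 passed. At an unadjusted p under 0.05 from limma, 1 was higher (Tnfaip3) and 1 lower (Rela), beside 2.82% and 2.77% of all genes. A higher mean was found for 14 and a lower mean for 30, with a median log2 fold change of -0.23, beside 68% of all genes lower and a median of -0.17. The direction turned with the libraries. Without H3, 21 were higher and 23 lower (median -0.013, 48.3% of all genes lower), with 4 higher and 1 lower at an unadjusted p under 0.05, beside 4.83% and 2.35% of all genes. Without H3 and H4, 33 were higher and 11 lower (median 0.12, 29.3% of all genes lower), with 3 higher and 1 lower at that limit, beside 9.87% and 2.25% of all genes. Rela, the main transactivating subunit of NF-kB, was 70.6, 87.4, 89.6 and 76.5 TPM in C1 to C4 and 65.9, 52.1, 27.5 and 61.9 TPM in H1 to H4. It was the only one of the 44 whose groups did not overlap, at a log2 fold change of -0.70 ± 0.29 (standard error; limma unadjusted p = 0.0382; exact permutation p = 0.0286) and -0.43 without H3. This 1 gene is 2.27% of the list, where 5.04% of all genes did not overlap and 2.31% were lower. Under quantile normalization 1 gene of the list was higher without overlap and 0 were lower, beside 3.48% and 2.71% of all genes. Median ratio scaling gave the same counts, beside 3.27% and 3.09% of all genes.

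Tnfaip3, which encodes the NF-kB inhibitor A20, was 18.4, 26.0, 22.4 and 17.6 TPM in C1 to C4 and 25.7, 25.0, 41.6 and 41.8 TPM in H1 to H4. H1 and H2 were just below the highest control, and the log2 fold change was 0.62 ± 0.26 (standard error) with an unadjusted p of 0.0407 from limma. H3 and H4 were the highest. Without H3 the log2 fold change was 0.51 (unadjusted p = 0.0606 from limma), and without both it was 0.27 (unadjusted p = 0.173 from limma). Cflar, which encodes the caspase-8 inhibitor FLIP, was the most abundant of the list at 299 to 361 TPM in controls and 308, 351, 76.6 and 261 TPM in H1 to H4, and its log2 fold change was -0.60 with H3 and -0.11 without it. Casp8 was 81.6 to 93.2 TPM in controls and 105, 112, 47.2 and 34.7 TPM in H1 to H4, with H1 and H2 above and H3 and H4 below the controls, and its log2 fold change was -0.43, turning to 0.27 when H3 and H4 were left out. Traf5, an adaptor of several TRAF receptors, was 60.2 to 103 TPM in controls and 85.4, 80.7, 15.4 and 30.7 TPM in H1 to H4, with a log2 fold change of -0.83, -0.35 without H3 and 0.12 without H3 and H4. Nfkbia, which encodes IkBa, the inhibitor that holds NF-kB in the cytoplasm, was 93.3 to 112 TPM in controls and 73.9, 91.3, 64.6 and 110 TPM in H1 to H4, and its log2 fold change was -0.25 with H3 and -0.13 without it.

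Endothelial genes that TNF is known to induce through NF-kB were followed in a second list of 24 genes, of which 22 were tested. It shares Tnfaip3, Nfkbia, Birc3, Traf1, Relb and Nfkb2 with the first list. With limma and Benjamini-Hochberg adjustment 0 passed. At an unadjusted p under 0.05, 3 were higher (Ccl2, Tnfaip2 and Tnfaip3) and 1 lower (Cx3cl1), beside 2.82% and 2.77% of all genes, and the median log2 fold change was 0.01. Without H3 this was 2 higher and 2 lower, beside 4.83% and 2.35% of all genes. Without H3 and H4 it was 1 higher and 4 lower, beside 9.87% and 2.25% of all genes, with a median of -0.18. Under quantile normalization this was 1 higher and 2 lower, beside 3.5% and 3.52% of all genes, and under median ratio scaling also 1 and 2, beside 3.08% and 3.66%. Of the 22 genes, 1 was higher (Tnfaip2) and 1 lower (Icam1) without overlap. These 2 genes are 9.09% of the list, where 5.04% of all genes did not overlap. The count was also 2 without H3, beside 9.1% of all genes, and 4 without H3 and H4, beside 24.4%. Tnfaip2 was 4.28, 4.02, 3.58 and 5.12 TPM in C1 to C4 and 5.97, 6.44, 31.6 and 17.1 TPM in H1 to H4. It was higher without overlap, at a log2 fold change of 1.34 ± 0.48 (standard error; exact permutation p = 0.0286), or 0.91 without H3 and 0.46 without H3 and H4. Under quantile normalization 0 genes of this list, Tnfaip2 included, were higher without overlap, beside 3.48% of all genes.

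Icam1, an adhesion molecule for leukocytes, was 225, 203, 246 and 240 TPM in C1 to C4 and 183, 144, 19.6 and 194 TPM in H1 to H4. It was lower without overlap, also without H3 (log2 fold change -1.17 ± 0.64 standard error with all libraries and -0.40 without H3; exact permutation p = 0.0286 for both). Relative to the endothelial markers of each library it was 0.067, again beside a median of 1.07 over all genes. Cx3cl1, the membrane chemokine fractalkine, was 34.04 to 50.9 TPM in controls and 35.01, 30.2, 2.23 and 16.5 TPM in H1 to H4, with a log2 fold change of -1.51, -0.75 without H3 and -0.44 without H3 and H4. Ccl2, a monocyte chemokine, was 5.28 to 13.3 TPM in controls and 14.7, 10.9, 166 and 27.1 TPM in H1 to H4. H3 was the highest by far, and the log2 fold change was 1.78, 0.96 without H3 and 0.62 without H3 and H4. Irf1, an interferon-responsive factor, was 162 to 251 TPM in controls and 172, 153, 50.9 and 122 TPM in H1 to H4, with a log2 fold change of -0.77, -0.39 without H3 and -0.25 without H3 and H4. Known targets of NF-kB thus lay on both sides of their control means.

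Of the other family genes whose symbols the naming rule did not match, beside the readthrough gene Tnfsfm13 given above, Eda2r was 2.44 to 3.10 TPM in controls and 2.94 to 6.85 TPM in endFoxf1+/- libraries, Relt was 0.153 to 1.38 TPM and 0.792 to 6.44 TPM, Eda was at most 3.23 TPM, and Cd40lg, Edar and Ngfr were under 1 TPM in every library.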

How the data were processed

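RNA was isolated from FACS-sorted CD45-CD31+ cells and libraries were made with the Nextera XT kit, which does not mark strand. For each of the 8 libraries (4 control, 4 endFoxf1+/-) the authors deposited 1 table of TPM per gene symbol. The submitters' processing notes name TopHat, Cufflinks, Subread and DESeq2 and the builds GRCm38 and mm10, without versions or roles, and the annotation is not given in the sources used here. The file names give 1 sequencing run and lane for all libraries. TPM keep no read number, so no counting error or floor was computed.

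TPM were used as deposited. Genes at 1 TPM or more in 4 or more libraries (14964) were fitted on log2(TPM + 1) with limma 3.58.1 in R 4.3.3 (lmFit, eBayes with trend), with Benjamini-Hochberg adjustment over all of them and a threshold of 0.05. The script was tested on simulated data. Single genes were also compared by exact two-sided permutation over libraries. The DESeq2 step of the study needs read counts and was not repeated. Groups came from the genotype labels. Coordinates are from GENCODE M21 on GRCm38 and upstream sequences from RefSeq (Python 3.11.15). No member had the same values as another gene in all libraries.

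Other settings tried were pseudocounts of 0.1 and 5, testing all genes or those at 5 TPM or more, quantile normalization, median ratio scaling, no trend, array weights, levels relative to the endothelial markers or to Pecam1, and each library left out. Leaving out H3 and H4 together was added after seeing the data. The members and lists were chosen with earlier results of these data known. Members given with values in every library are those without overlap, the 5 largest log2 fold changes in each direction and the 10 highest means. Of the pathway and target lists they are those without overlap, the 3 highest means and the 2 largest changes in each direction. Values of Tnf, Tnfsf13, Tnfrsf11a, Tnfrsf21 and Tnfrsf26 were added after their values were seen. A gene found by this rule is not reported here.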

Additional observations from a re-analysis of the deposited data

Results flagged for a closer look

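Icam1 was 19.6 TPM in endFoxf1+/- library H3, against 144 to 194 TPM in the other endFoxf1+/- libraries, so that on the log2(TPM + 1) scale the gap to the nearest library took up 0.869 of the range of the group, above Dixon's limit for 4 values. Of 56 groups tested this way, for 28 named genes in the control and endFoxf1+/- libraries, 1 was beyond the limit, and chance gives about 1 in 20. The endothelial markers of H3 stood at 5.24% of the control mean, and their part in this value was not tested.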

How the results depend on the processing

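With limma and Benjamini-Hochberg adjustment, 0 members passed the threshold under all alternatives other than array weights, where 1 did (Tnfrsf23). The pathway and NF-kB target lists had 0 under every alternative. The count of members without overlap, 2 with all libraries, was 0 with a minimum of 5 TPM (4.75% of all genes), 3 with quantile normalization (6.19%) and 4 with median ratio scaling (6.36%). It was 5 relative to the endothelial markers (12.4%) and 2 relative to Pecam1 (4.41%). The count was 2 to 4 with a library left out (4 without C1, H2 or H4, beside 8.07, 10.2 and 9.36% of all genes) and 6 without H3 and H4 (24.4%). The median log2 fold change of the members was -0.35 with a minimum of 5 TPM, where 18 members were tested, and -0.10 to 0.25 with a library left out (0.25 without H4). The median over all genes was -0.17, and moved to -0.0077 with quantile normalization, -0.0098 with median ratio scaling, 0.13 with array weights, 1.07 relative to the endothelial markers and 0.87 relative to Pecam1. The cause of these differences was not tested. No paired analysis was possible because the titles in the labels give each library a number that no other library has, and tie no control to an endFoxf1+/- library.

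The 28 named genes gave 473 single-gene log2 fold changes over the alternatives other than levels relative to the endothelial markers or Pecam1. Of these, 449 kept their sign and side of the threshold, 23 changed sign and 1 (Tnfrsf23 with array weights, 1.20) passed the threshold. Another 29 of 56 changed sign relative to the endothelial markers or Pecam1, scalings that raised nearly all genes alike. Among these named genes, no sign changed with another pseudocount, with no filter or a minimum of 5 TPM, without the trend, or without any control library, H1, H2 or H4. Other members did change sign, such as Tnfrsf13b, from -0.22 with all libraries to 0.25 without H4. Tnfrsf10b turned to 0.016 with quantile normalization and 0.065 with median ratio scaling. With a library left out, Cd27 ranged from -0.67 to 0.064, Tnfrsf10b from -0.31 to 0.20 and Tnfrsf11b from -1.04 to 0.099, each positive without H3 only. Without H3 and H4, Cd27 was 0.32, Cd40 0.12, Fas 0.17, Tnfrsf10b 0.089, Tnfrsf12a -0.21, Tnfrsf1a 0.12, Tnfsf9 -0.042, Casp8 0.27, Cflar 0.0054 and Traf5 0.12. With array weights, Cd27 was 0.088, Cd40 0.027, Fas 0.16, Tnfrsf10b 0.19, Tnfrsf12a -0.19, Tnfrsf1a 0.012, Casp8 0.18 and Traf5 0.12. Relative to the endothelial markers, Cd27 was 0.89, Cd40 0.69, Fas 0.36, Ltbr 0.39, Tnfrsf10b 1.11, Tnfrsf11b 0.60, Tnfrsf1a 0.55, Tnfsf12 0.65, Casp8 0.81, Cflar 0.64, Icam1 0.067, Irf1 0.47, Nfkbia 0.99, Rela 0.54 and Traf5 0.41. Relative to Pecam1, Cd27 was 0.70, Cd40 0.50, Fas 0.17, Ltbr 0.19, Tnfrsf10b 0.92, Tnfrsf11b 0.40, Tnfrsf1a 0.36, Tnfsf12 0.46, Casp8 0.62, Cflar 0.44, Irf1 0.28, Nfkbia 0.79, Rela 0.34 and Traf5 0.22. Depth is unknown and limits low members in a way that could not be measured.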
